A study of Homo sapiens with 8 samples.

Results

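The genes described here are 38 genes of the actin cytoskeleton and of the serum response factor (SRF) programme. The 38 were listed by name, with earlier results of these data known, from 32511 genes and loci that the probes on the array carry as names. They comprise 4 actins, 8 crosslinkers and adhesion adaptors, 5 genes of the calponin and transgelin family, 5 tropomyosin and caldesmon genes, 6 myosin chains and their kinase, SRF with the 2 matricellular genes CCN1 and CCN2, and 7 LIM domain and other adaptors. All 38 had a probe that entered the comparison, among 28876 genes tested. The question was which of them rise together with VCL, the gene of vinculin, and which fall together with ACTA2, the gene of smooth muscle actin.

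RNA came from LNCaP cells, an established androgen-responsive line from a human prostate cancer metastasis, kept in medium with fetal bovine serum. Cells of 4 arrays were labelled siGATA2 and had been transfected for 72 h with 30 nM siRNA against GATA2, a zinc finger transcription factor, and cells of the other 4 arrays, labelled siControl, had received a scrambled siRNA at the same dose and time. Both groups are one tumour line under transient transfection, and the labels do not say whether replicates were separate cultures, so that p-values measure the spread between arrays. On the log2 scale, GATA2 itself read 12.61, 12.54, 11.57 and 11.40 in the 4 siGATA2 arrays in order and 11.74, 11.28, 11.09 and 11.29 in the siControl arrays. It was thus not lower on the arrays labelled siGATA2 (difference 0.68, exact two-sided permutation p = 0.143). Among 25 alternatives the difference was positive in all and passed limma's test as higher in only 2. These were array weights (0.80, adjusted p = 0.0312) and a block for title letters chosen after seeing the data (0.47, adjusted p = 0.0264). With scaling to spike-in probes the difference was 0.03 (adjusted p = 0.986 by limma). Every direction below is drawn from the labels, and the protein and PCR measurements of the study were not analysed here.

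Actin filaments slide, bundle and anchor at focal adhesions, where vinculin, talin, zyxin and paxillin link them to integrins. When actin monomers are used up by polymerization, the MRTF coactivators move to the nucleus and act with SRF on promoters that carry a CArG box, among them many genes of the filaments themselves. The same tension signals reach YAP and TAZ, which act with TEAD factors, and CCN1 and CCN2 are textbook targets of both routes. ACTA2, ACTG2, CNN1, TAGLN and MYL9 mark the contractile programme of smooth muscle and myofibroblasts.

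The promoter sequences below are shown because they place the CArG box in genes that moved in opposite directions and in ACTG2, which was not called. They were taken from RefSeq windows on GRCh38.p14 that run from 250 bases before to 50 bases after each start, and only bases before the start are printed, each 5′ to 3′ on the strand of the gene. Capitals mark the CArG box in the first 6 sequences and the TEAD core GGAATG in the last 3. Those last 3 genes were all called higher, although ACTA2, which was called lower, also carries GGAATG.
SRF (chr6:43171214-43171268, plus strand): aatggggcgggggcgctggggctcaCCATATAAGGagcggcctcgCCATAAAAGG
ACTG2 (chr2:73892873-73892932, plus strand): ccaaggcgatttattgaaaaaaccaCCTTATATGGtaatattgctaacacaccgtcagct
ACTG1 (chr17:81512859-81512918, minus strand): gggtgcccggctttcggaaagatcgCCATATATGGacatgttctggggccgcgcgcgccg
ACTN1 (chr14:68977703-68977762, minus strand): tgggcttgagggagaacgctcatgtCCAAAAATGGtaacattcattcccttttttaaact
MYLK (chr3:123620608-123620667, minus strand): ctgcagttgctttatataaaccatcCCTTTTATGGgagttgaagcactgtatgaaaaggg
TPM4 (chr19:16067340-16067399, plus strand): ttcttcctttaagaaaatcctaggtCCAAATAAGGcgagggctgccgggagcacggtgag
CCN2 (chr6:131951446-131951501, minus strand): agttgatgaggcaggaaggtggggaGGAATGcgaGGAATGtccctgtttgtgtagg
VCL (chr10:73997920-73997975, plus strand): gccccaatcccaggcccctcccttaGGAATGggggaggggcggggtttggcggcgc
MYH9 (chr22:36388007-36388062, minus strand): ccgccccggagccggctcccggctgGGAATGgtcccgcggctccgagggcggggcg

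Windows were found for 34 of the 38 genes, and ACTB, TAGLN, MYL9 and CCN1 had none. The CArG box was searched only as the exact pattern of CC, 6 bases of A or T, and GG, which reads the same on both strands. Looser forms of the box were not searched, and ACTA2 had no exact match. The exact pattern stood in a window of 11 of the 34 genes, or 32.4%, against 1.61% of 27058 genes with a window. Because the list was drawn up from genes of the SRF programme, among others, a share above that of all genes could follow from this choice. It was present in 3 of 6 genes called lower (SRF, MYLK and TPM4), in 2 of 14 called higher (ACTG1 and ACTN1) and in 6 of 14 not called (ACTG2, FLNA, CNN2, TGFB1I1, FHL1 and FHL2). GGAATG on either strand stood in 15 of the 34, or 44.1%, against 16.7% of all genes. It stood in 9 of those called higher, 3 called lower (ACTA2, MYLK and CALD1) and 3 not called. The CCN2 window held it 3 times. In these windows no GGAATG overlapped a CArG box. Genes with several starts had several windows, and a match is a description of letters, not of binding.

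Signals are given below as quantile-normalized log2 values of the processed signal, and every change is a log2 difference of group means, positive where the arrays labelled siGATA2 are higher. A gene was called when limma's p, adjusted by Benjamini-Hochberg over all 28876 genes, was under 0.05. Of the 38 genes 17 were called higher, where 12.3% of all genes tested were, and 6 were called lower, where 14.1% of all genes were. At least 2-fold, 9 were higher, against 4.51% of all genes, and 2 were lower, against 7.09%. The 9 include CNN3, whose fold is not established because no siControl array measured it well above background, which leaves 8. The values on arrays labelled siGATA2 all lay above those labelled siControl for 17 genes, against 16.2% of all genes, and all below for 6, against 16.3%. The median change of the 38 was 0.48, beside 0.09 over all genes tested.

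**Figure D1:**
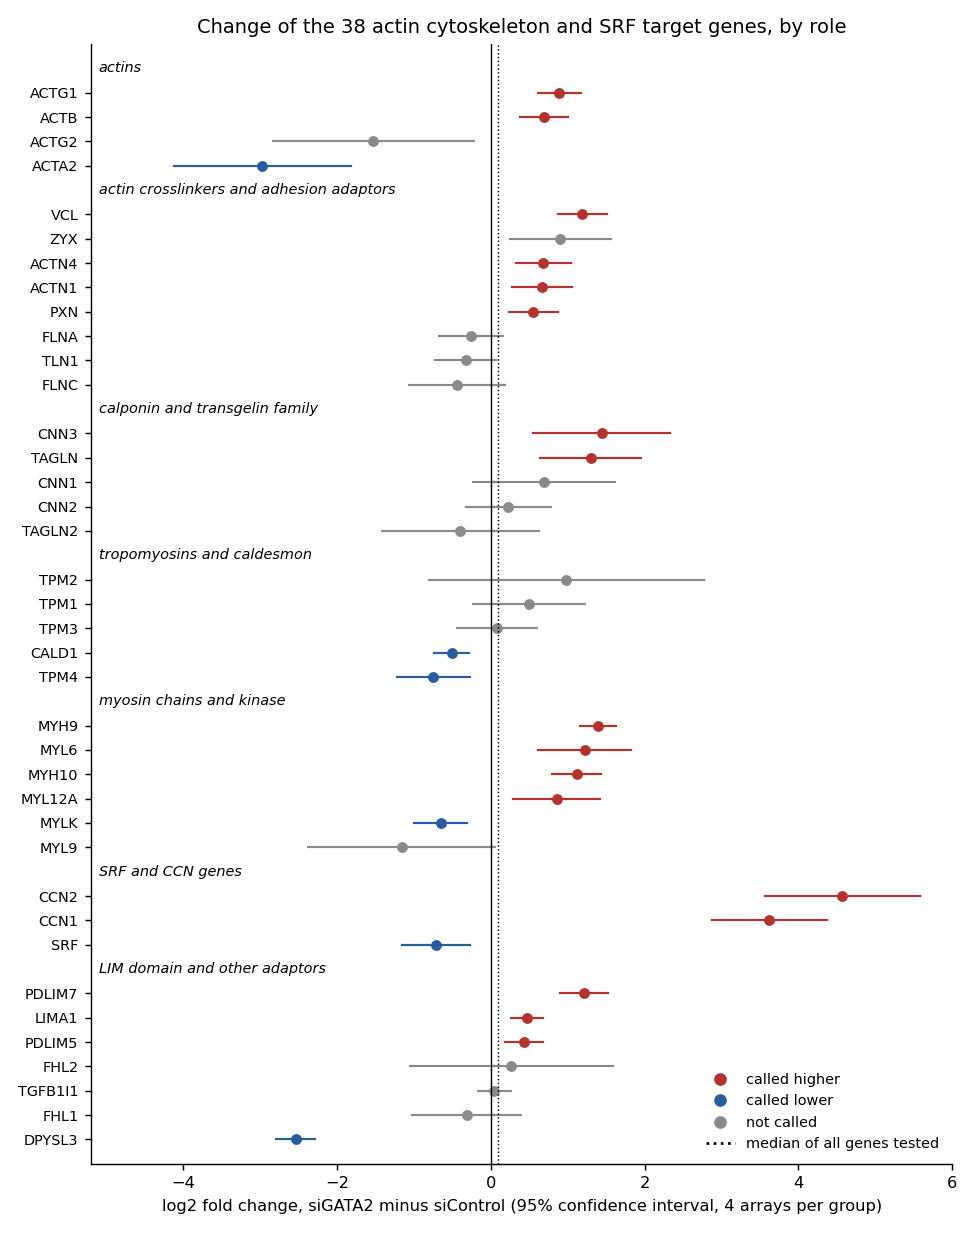
Log2 fold change of each of the 38 genes with its 95% confidence interval (4 arrays per group), in groups by role, with colour for the call and a dotted line at the median of all genes tested. The CNN3 point rests on siControl values that were not well above background, CCN1 and CCN2 stand farthest to the right, ACTA2 and DPYSL3 farthest to the left, and VCL sits with non-muscle actins and myosins to the right of 0, where scaling to spike-in probes puts ACTB, PXN, LIMA1 and PDLIM5 slightly to the left. Without siControl array 1 the spike-in scaling puts ACTB, PXN, LIMA1 and PDLIM5 to the right of 0.

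Rising with VCL were ACTB and ACTG1 of the actins, ACTN1, ACTN4 and PXN of the adhesion genes, TAGLN and CNN3, MYH9, MYH10, MYL6 and MYL12A of the myosins, CCN1 and CCN2, and PDLIM5, PDLIM7 and LIMA1. Falling with ACTA2 were DPYSL3, TPM4, SRF, MYLK and CALD1. The other 15 genes, with changes from -1.53 to 0.98, were not called. Quality differed between arrays in ways that touch these calls. The number of probes well above background ran from 34136 to 36735 on the arrays labelled siGATA2 and from 24072 to 34591 on those labelled siControl. The negative control probes of siControl arrays 1 and 3 varied most, with an SD in intensity of 4.49 and 7.26, where the other 6 arrays had 1.78 to 2.40. The E1A spike-in, a synthetic RNA added during labelling and read by 7 probes, averaged 11.13 on the log2 scale in siControl array 1, where the other 7 arrays had 13.45 to 13.83. Without siControl array 1, 15 of the 38 genes were higher and 9 lower, among 3992 and 4410 of all genes tested. ACTG2 (log2 fold change -2.04, adjusted p = 0.00973 by limma), MYL9 (-1.69, adjusted p = 0.00483) and TLN1 (-0.48, adjusted p = 0.0147) then passed the test as lower, and CNN3 (adjusted p = 0.0608) and MYL12A (0.82, adjusted p = 0.0710) no longer passed it. With the row of the slide as a block, since 3 of 4 siGATA2 arrays lay in one row and 3 of 4 siControl arrays in the other, 10 of the 38 genes were higher and 5 lower, and the counts over all genes fell too, to 2178 higher and 2968 lower.

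When the arrays were scaled to the E1A probes in place of quantile normalization, the median of all genes moved by -0.52, with 139 genes called higher and 1874 lower. Of the 38 genes 2 were then called higher and 4 lower, in place of 17 and 6. Those higher were CCN1 (2.93) and CCN2 (3.95), and those lower were ACTA2 (-3.51), DPYSL3 (-3.09), ACTG2 (-1.997) and MYL9 (-1.70). VCL was then at 0.49 (adjusted p = 0.644 by limma) and MYH9 at 0.63 (adjusted p = 0.540). Without siControl array 1 the E1A scaling gave 7 of the 38 genes higher and 10 lower, among 1818 and 4354 of all genes tested. VCL was then at 0.75 (adjusted p = 0.0301 by limma), MYH9 at 0.96 (adjusted p = 0.0100), MYH10 at 0.97 (adjusted p = 0.0106), TAGLN at 1.33 (adjusted p = 0.0275) and PDLIM7 at 1.07 (adjusted p = 0.00239). Measured against the median of all genes under the same scaling, each of the 38 genes had the same sign with E1A scaling as with quantile normalization. E1A scaling shifts all genes of an array by the same amount, which subtracting that median takes out again. This agreement therefore cannot show whether the rises hold against the spike-in. The rises of VCL and of the genes that rose with it are given below as quantile-normalized values, relative to the other genes. With E1A scaling of all arrays, only those of CCN1 and CCN2 were called.

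**Figure D2:**
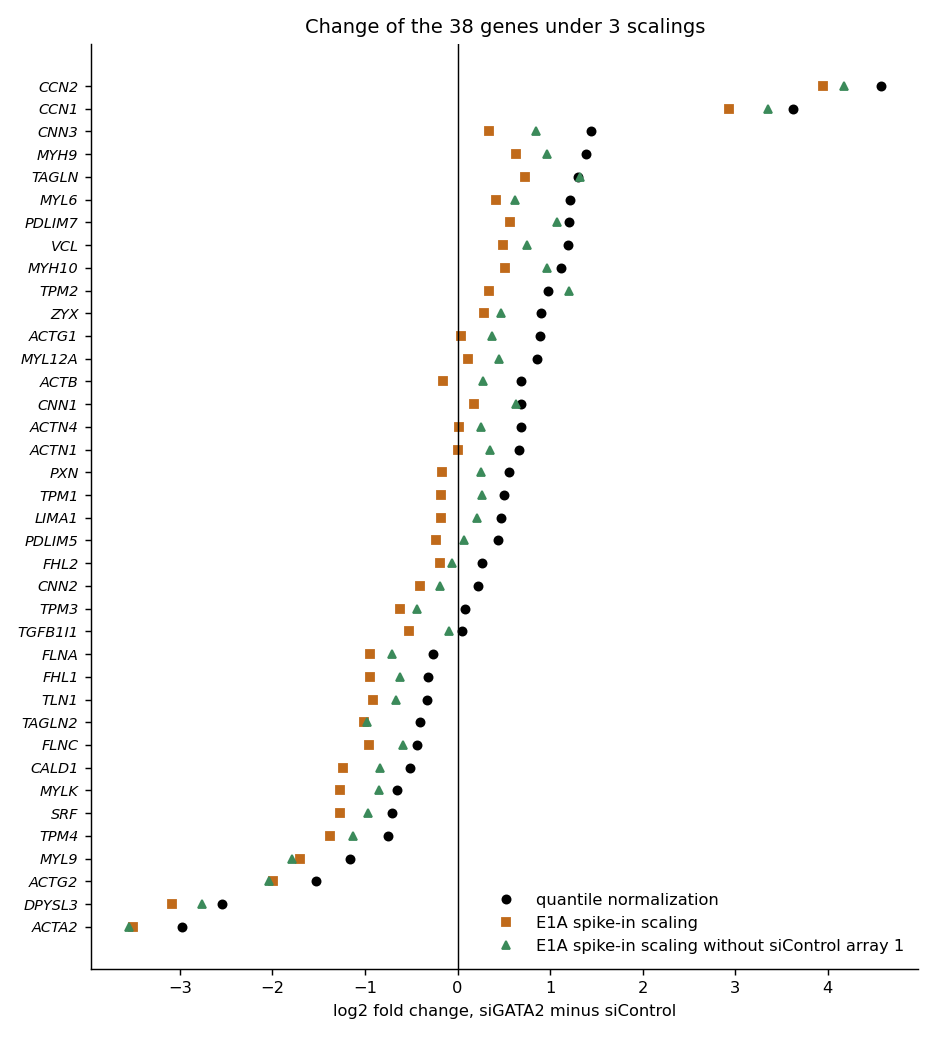
Log2 fold change of the 38 genes, ordered by the quantile-normalized value, under quantile normalization, under scaling to the E1A spike-in and under that scaling without siControl array 1. The spike-in values lie lower than the quantile-normalized ones, except for TAGLN and TPM2 without siControl array 1: ACTB moves from 0.69 to -0.16 and, without siControl array 1, to 0.28.

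Among the actins ACTA2 fell, the cytoplasmic forms ACTB and ACTG1 rose, and ACTG2 did not pass the test. Under E1A scaling neither cytoplasmic form was called, with ACTB at -0.16 (adjusted p = 0.911 by limma) and ACTG1 at 0.04 (adjusted p = 0.978). Without siControl array 1, whose E1A signal was low, that scaling put them at 0.28 and 0.38, again not called. ACTA2, alpha smooth muscle actin, read 7.62, 7.67, 8.74 and 8.71 in the arrays labelled siGATA2, in order, and 9.82, 11.78, 11.24 and 11.78 in those labelled siControl. Every siGATA2 value was below every siControl value, and siControl array 1 was the lowest of its group. The mean was 8.18 ± 0.626 (SD, n = 4) against 11.16 ± 0.924, a 7.84-fold fall (log2 fold change -2.97, SE 0.50, adjusted p = 0.00324 by limma), and ACTA2 was called under all 25 alternatives run. In bulk RNA, fewer cells with ACTA2 and less ACTA2 RNA per cell cannot be told apart. ACTG2, enteric smooth muscle actin, measured 5.97, 6.20, 7.32 and 7.30 on the arrays labelled siGATA2 and 6.70, 8.93, 8.34 and 8.92 on those labelled siControl. Its groups overlapped through siControl array 1, which was below siGATA2 arrays 3 and 4, and the change of -1.53 (SE 0.56) missed the threshold (adjusted p = 0.0852 by limma).

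Beta-actin, ACTB, is a cytoplasmic actin of non-muscle cells. Its values were 18.30, 18.37, 18.73 and 18.68 on the arrays labelled siGATA2 and 17.76, 17.96, 17.74 and 17.87 on those labelled siControl. The groups did not overlap, and the log2 fold change was 0.69 (SE 0.13, adjusted p = 0.00685 by limma), or 1.61-fold. ACTG1, gamma cytoplasmic actin, measured 17.13, 17.12, 17.43 and 17.25 against 16.17, 16.47, 16.32 and 16.42. All siGATA2 arrays were above all siControl arrays by a fold of 1.85 (log2 fold change 0.89, SE 0.12, adjusted p = 0.00110 by limma). How well the probes separate the near-identical actin transcripts was not tested, and their levels are not compared with each other.

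**Figure D3:**
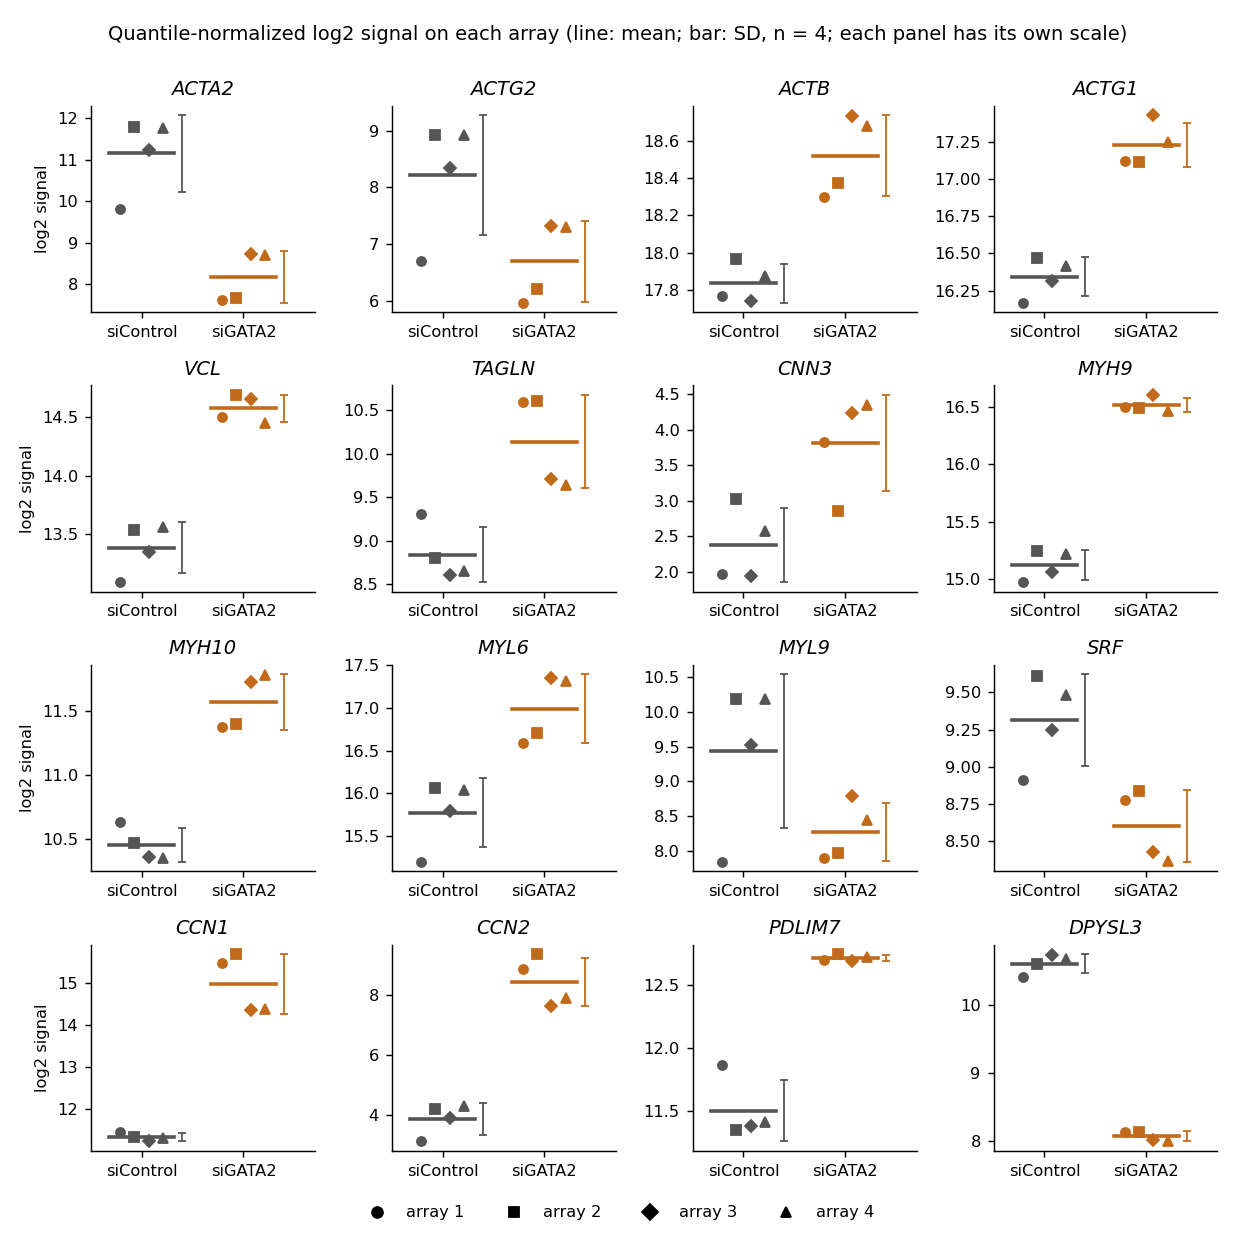
Quantile-normalized log2 signal of 16 of the 38 genes on each of the 8 arrays, with the group mean (line) and SD (bar, n = 4) and a marker shape for each array number, each panel on its own scale. ACTA2 falls while ACTB, ACTG1, VCL, MYH9 and MYL6 rise. In ACTG2 siControl array 1 (circle) lies among the siGATA2 values, and in MYL9 it lies below them all. In TAGLN, CCN1 and CCN2 siGATA2 arrays 1 and 2 lie above arrays 3 and 4. Under E1A scaling ACTB is at -0.16 and ACTG1 at 0.04, and VCL, MYH9 and MYL6 stay positive without being called. Without siControl array 1 that scaling puts ACTB at 0.28 and ACTG1 at 0.38, not called, and VCL and MYH9 are called.

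In the crosslinkers and adhesion adaptors, 4 of 8 genes rose and none fell by the test, beside 12.3% higher and 14.1% lower over all genes tested. The median change of the 8 was 0.61. Under E1A scaling none of the 4 that rose was called, with PXN at -0.17, ACTN1 at 0.0017 and ACTN4 at 0.019. Without siControl array 1 that scaling put PXN at 0.26, ACTN1 at 0.35 and ACTN4 at 0.26, again not called, while VCL was called at 0.75. VCL, which couples talin to actin at focal adhesions, had signals of 14.50, 14.69, 14.65 and 14.45 on arrays labelled siGATA2. On arrays labelled siControl it had 13.09, 13.54, 13.34 and 13.56. The lowest siGATA2 array was above the highest siControl array, and the change was 2.28-fold (log2 fold change 1.19, SE 0.14, adjusted p = 0.000496 by limma). The alpha-actinins, which bundle filaments, rose by less, ACTN4 by 0.68 (SE 0.16, adjusted p = 0.0142) and ACTN1 by 0.67 (SE 0.17, adjusted p = 0.0212), and the scaffold paxillin, PXN, by 0.55 (adjusted p = 0.0210). ACTN1 and PXN were each called under 17 of the 25 alternatives.

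ZYX, zyxin, which is recruited to filaments under tension, had groups that did not overlap and a change of 0.90 (SE 0.28), at an adjusted p of 0.05005 by limma that fell just on the far side of the threshold. Talin, TLN1, which activates integrins, was at -0.33 (adjusted p = 0.199), and filamin A, FLNA, which crosslinks filaments into networks, at -0.26 (adjusted p = 0.325). FLNA was called lower under 2 of 25 alternatives, both chosen after seeing the data. These were the arrays titled D to G alone (-0.61, adjusted p = 0.00511 by limma) and E1A scaling without siControl array 1 (-0.71, adjusted p = 0.0276). FLNC, the filamin of striated muscle, exceeded background clearly on none of the 8 arrays.

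The calponin and transgelin family gave 2 genes higher of 5, and none of the 5 was called lower, beside 12.3% higher and 14.1% lower over all genes tested. TAGLN, an actin-binding protein of smooth muscle and a classical SRF target, had signals of 10.60, 10.61, 9.71 and 9.63 on arrays labelled siGATA2 against 9.30, 8.80, 8.61 and 8.65 on arrays labelled siControl. The groups did not overlap, and siGATA2 arrays 1 and 2 were the highest. It rose 2.46-fold (log2 fold change 1.30, SE 0.29, adjusted p = 0.0121 by limma), in the direction opposite to ACTA2. CNN3, the acidic calponin, was well above background on 3 of 4 siGATA2 arrays and on none of the siControl arrays, with 3.83, 2.86, 4.23 and 4.35 against 1.97, 3.03, 1.93 and 2.58. Its groups overlapped, and although it was called (adjusted p = 0.0271 by limma) no fold is given because the siControl level was not measured above background. CNN1, the basic calponin of smooth muscle, was above background on 4 siGATA2 and 2 siControl arrays and was not called (0.69, adjusted p = 0.252). CNN2 (0.23) and TAGLN2 (-0.40), which are widely expressed, were not called, and CNN2 had the opposite sign under E1A scaling (-0.41).

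Of the tropomyosins, which wind along filaments and gate myosin, only TPM4 passed the test, and it fell. TPM4 was at -0.75 (SE 0.21, adjusted p = 0.0300 by limma), with groups that did not overlap, and was called under 17 of 25 alternatives. Caldesmon, CALD1, which holds back actomyosin, fell by 0.51 (SE 0.10, adjusted p = 0.00667), with all siGATA2 values below all siControl values. TPM1 (0.50, adjusted p = 0.291) and TPM3 (0.08, adjusted p = 0.825) were not called and turned negative under E1A scaling, at -0.18 and -0.62, while with title letters as a block, described below, both were called higher. Without siControl array 1 the E1A scaling put TPM1 at 0.26 and TPM3 at -0.44. TPM2, named here after its values were seen, had the widest interval of the 38, from -0.80 to 2.77 around a change of 0.98. Its signals were 12.68, 12.77, 10.09 and 10.23 on arrays labelled siGATA2 and 11.86, 10.05, 9.93 and 9.997 on those labelled siControl, so that siGATA2 arrays 1 and 2 and siControl array 1 stood above the other 5 arrays.

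Of the myosin genes, the heavy chains MYH9 and MYH10 and the light chains MYL6 and MYL12A rose, while MYLK, the kinase that activates the motor, fell. MYH9, the heavy chain of myosin IIA, had 16.50, 16.49, 16.61 and 16.46 on arrays labelled siGATA2 and 14.97, 15.24, 15.06 and 15.22 on arrays labelled siControl. These groups were far apart relative to their spread, and the fold was 2.62 (log2 fold change 1.39, SE 0.10, adjusted p = 6.8e-05 by limma). MYH10, the heavy chain of myosin IIB, had 11.37, 11.40, 11.73 and 11.79 against 10.64, 10.47, 10.36 and 10.35. It rose 2.17-fold without overlap (log2 fold change 1.12, SE 0.14, adjusted p = 0.000720 by limma). MYL6, an essential light chain, had 16.59, 16.71, 17.35 and 17.32 against 15.20, 16.07, 15.80 and 16.04, a fold of 2.33 (log2 fold change 1.22, SE 0.26, adjusted p = 0.0109 by limma).

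MYL12A, a regulatory light chain of non-muscle cells, rose by 0.86 (SE 0.25, adjusted p = 0.0362) and was called under 13 of 25 alternatives. MYL9, its counterpart in smooth muscle, changed the other way without passing the test (-1.16, SE 0.53, adjusted p = 0.150). Its values, given here after they were seen, were 7.89, 7.96, 8.78 and 8.45 on arrays labelled siGATA2 and 7.84, 10.18, 9.52 and 10.18 on arrays labelled siControl. Here siControl array 1 was the lowest of all 8 and the other 3 siControl arrays were the highest. MYLK, the myosin light chain kinase, fell by 0.65 (SE 0.15, adjusted p = 0.0136), with no overlap between groups.

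SRF itself moved against the CCN genes. SRF measured 8.78, 8.84, 8.43 and 8.37 on arrays labelled siGATA2 and 8.91, 9.61, 9.25 and 9.49 on arrays labelled siControl. Every siGATA2 value was below every siControl value, but siGATA2 arrays 1 and 2 lay close to siControl array 1. The fall was 1.64-fold (log2 fold change -0.71, SE 0.19, adjusted p = 0.0270 by limma), and SRF was called under 17 of 25 alternatives.

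CCN1 (CYR61), a matricellular protein that binds integrins, had signals of 15.47, 15.67, 14.34 and 14.37 on arrays labelled siGATA2 against 11.47, 11.35, 11.23 and 11.31. All siGATA2 arrays were far above the siControl arrays, and arrays 1 and 2 were above arrays 3 and 4. The fold was 12.3 (log2 fold change 3.62, SE 0.32, adjusted p = 0.000152 by limma). CCN2 (CTGF), its relative, had 8.87, 9.38, 7.64 and 7.90 against 3.11, 4.19, 3.91 and 4.28, the latter well above background on 2 of 4 arrays. The groups lay apart in the same way, with a fold of 23.8 that rests on a dim siControl level (log2 fold change 4.57, SE 0.43, adjusted p = 0.000201 by limma). CCN1, CCN2, ACTA2 and DPYSL3 were the 4 genes called under all 25 alternatives, in which CCN2 ranged from 2.37 to 4.84 and CCN1 from 2.93 to 3.83.

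The LIM domain and other adaptors gave 3 genes higher and 1 lower of 7, beside 12.3% higher and 14.1% lower over all genes tested. PDLIM5 (-0.23) and LIMA1 (-0.18) were of opposite sign under E1A scaling. Without siControl array 1 that scaling put them at 0.07 and 0.21, not called. DPYSL3, a collapsin response mediator that binds actin and tubulin, had the smallest SE relative to its change among the genes that fell. It measured 8.13, 8.14, 8.02 and 8.00 on arrays labelled siGATA2 and 10.42, 10.62, 10.74 and 10.68 on arrays labelled siControl. The groups were tight and far apart, a 5.82-fold fall (log2 fold change -2.54, SE 0.11, adjusted p = 1.3e-05 by limma). PDLIM7, a PDZ and LIM protein of actin filaments also known as Enigma, had 12.70, 12.74, 12.68 and 12.72 against 11.86, 11.35, 11.38 and 11.41. It rose 2.31-fold with siControl array 1 the nearest to the siGATA2 arrays (log2 fold change 1.21, SE 0.13, adjusted p = 0.000433 by limma).

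LIMA1, which stabilizes filaments and bundles, rose by 0.47 (SE 0.09, adjusted p = 0.00637). PDLIM5, which anchors kinases to alpha-actinin, rose by 0.44 (SE 0.11, adjusted p = 0.0193) and was called under 16 of 25 alternatives. FHL1 (-0.31), FHL2 (0.26) and TGFB1I1 (0.05), LIM proteins of muscle and adhesions, were not called, and FHL2 (-0.18) and TGFB1I1 (-0.52) changed sign under E1A scaling.

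Measured by 58 probes in all, 25 of the 38 genes had 1 probe and 13 had several. Of the 58 probes 22 were called higher, where 12.5% of all probes tested were, and 9 lower, where 14.4% were. For 12 genes with 2 or more probes above background on all 8 arrays, the probe with the largest and the one with the smallest change were compared by an exact two-sided permutation test over arrays, in which 4 against 4 cannot go below 0.0286. That smallest p was reached by PDLIM5, PDLIM7, TAGLN and TPM1, each with an adjusted p of 0.0857 over the 12 genes, so that no difference passed the correction.

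PDLIM5 gave the widest disagreement in sign, with one probe at 0.44 and another, designed on a different RefSeq transcript, at -0.57 (SE 0.15, adjusted p = 0.0230 by limma over probes). The second read 10.13, 10.03, 9.67 and 9.58 on arrays labelled siGATA2 and 10.39, 10.42, 10.39 and 10.49 on arrays labelled siControl, all below. For PDLIM7 the brightest probe rose by 1.21, while those on another transcript were at 0.16 and 0.07 with overlapping groups, a difference of 1.14. In TAGLN the probes differed in size only, at 1.595 and 1.30, and in MYLK at -0.89 and -0.65. TPM1 was at 0.50, 0.80 and 0.82, and in the dimmer pair of probes the groups did not overlap although neither was called.

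**Figure D4:**
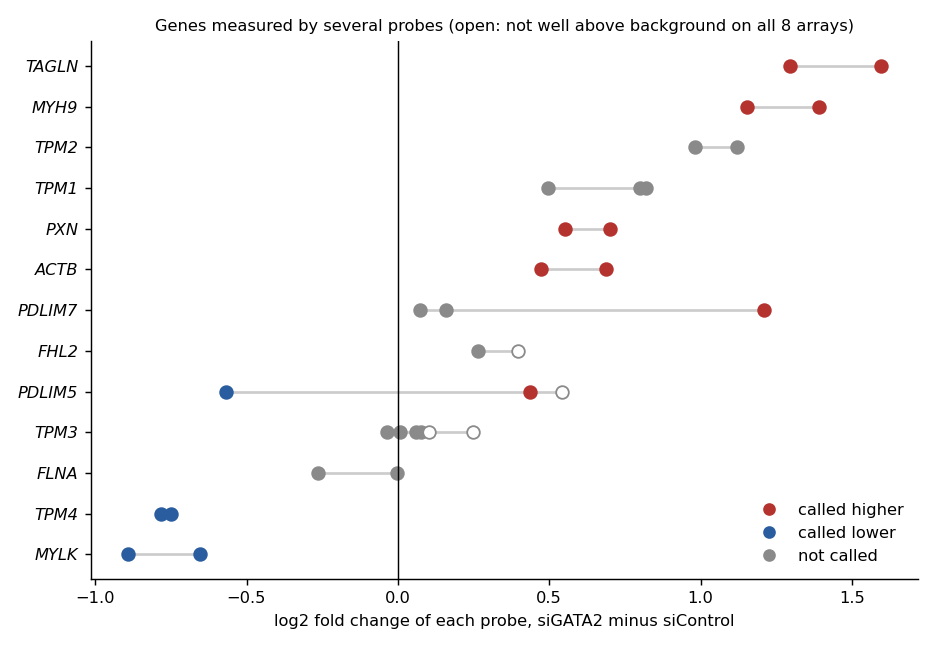
Log2 fold change of every probe of the 13 genes measured by several probes, coloured by the call and open where it failed to exceed background clearly on some array. PDLIM5 has probes on both sides of 0 and PDLIM7 1 probe apart from 2 near 0, while those of ACTB, MYH9, MYLK, PXN, TAGLN and TPM4 share their sign and call. E1A scaling moves ACTB and PXN to -0.16 and -0.17 and, without siControl array 1, to 0.28 and 0.26.

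Array titles carry letters whose meaning the labels do not give. In several of the 38 genes the arrays titled A and B (siGATA2 arrays 1 and 2 and siControl array 1) stood apart from those titled D to G, a split noticed in these values and not in the labels. The difference between the groups was therefore also computed inside each set, where the A and B set has only 1 siControl array. All 23 called genes kept their sign in both sets. For all of them but CNN3 the groups did not overlap, so any split of the arrays had to give that sign. VCL differed by 1.51 within A and B and by 1.07 within D to G, ACTA2 by -2.18 and -2.87, and CCN1 by 4.10 and 3.06. CCN2 differed by 3.64 within D to G, and within A and B it stood against a single siControl array that did not measure it well above background. SRF differed by -0.11 and -1.05, so its fall lay mostly in the arrays titled D to G. The sign was opposite for 5 genes, all not called, MYL9 (0.09 and -1.35), FLNA (0.32 and -0.61), TLN1 (0.16 and -0.51), TAGLN2 (0.03 and -0.14) and FHL1 (-0.74 and 0.19). No test was run on these differences between sets. With the 2 sets of letters as a block, 22 of the 38 genes were called higher and 7 lower, among 7172 and 5715 of all genes tested. ZYX (1.096, adjusted p = 0.000228 by limma), TPM1 (0.72, adjusted p = 0.00168), FHL2 (0.67, adjusted p = 0.0334), CNN2 (0.38, adjusted p = 0.0339) and TPM3 (0.23, adjusted p = 0.0474) then passed the test as higher and ACTG2 (-1.14, adjusted p = 0.00549) as lower.

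**Figure D5:**
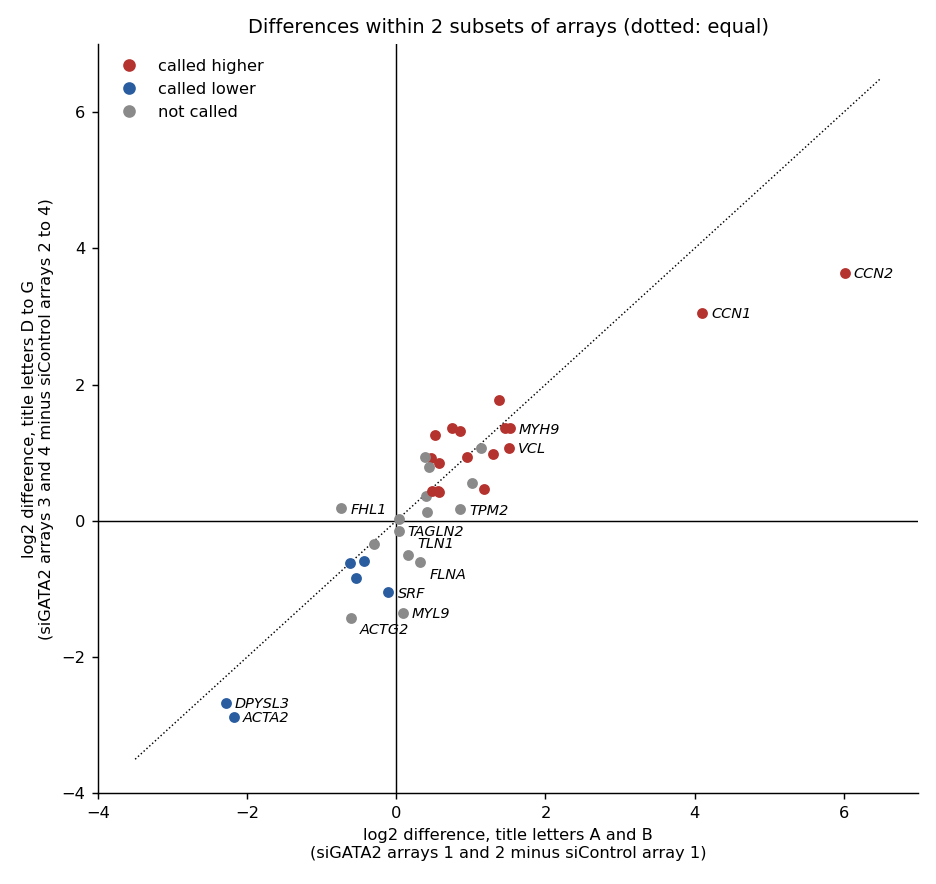
Difference between the groups inside the arrays titled A and B (x axis, log2, with 1 siControl array) and inside those titled D to G (y axis, log2), 1 point per gene, with a dotted line where both are equal. CCN1 and CCN2 lie to the right of the line (CCN2 on the x axis against an array that did not measure it above background), ACTA2 and DPYSL3 near its lower end, and SRF, MYL9, FLNA and TLN1 differ from 0 mainly on the y axis.

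The wider pathway was described by 4 lists with 77 genes, of which 74 were tested, 16 called lower, 12 higher and 46 neither, beside 14.1% lower and 12.3% higher over all genes tested. Of the SRF cofactors and regulators 2 were higher and 2 lower of 7 tested. MRTFB, a coactivator of SRF, rose by 0.72 (adjusted p = 0.00299 by limma), and MRTFA, at 0.50, was not called (adjusted p = 0.154). MYOCD, the coactivator of muscle, did not exceed background clearly on any array. SCAI, which inhibits MRTF, rose by 1.01 (adjusted p = 0.00459), and the ternary complex factors ELK3 and ELK4, which share SRF with MRTF, fell, at -1.65 and -0.56. The ternary complex factor ELK1, at -0.38, was not called (adjusted p = 0.357 by limma).

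Of the Arp2/3 and WAVE genes, which branch filaments, 3 were lower and 2 higher of 19, with WASF3 at -1.07. Over all genes tested 14.1% were lower and 12.3% higher. Among 20 genes for monomer binding, capping, bundling and membrane linkage 6 were lower and 3 higher. LCP1, the bundler L-plastin (-3.51), and TMSB10 (-1.27) fell, whereas TMSB4X, which like TMSB10 sequesters actin monomers (2.23), and the capping gene CAPG (1.12) rose.

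Of 28 other focal adhesion genes 5 were lower and 5 higher, beside 14.1% lower and 12.3% higher over all genes tested. TNS3, a tensin (-3.03), and FERMT1, a kindlin (-2.34), fell, and the adaptors NEDD9 (2.91, above background on 2 of 4 siControl arrays) and CRK (1.00) rose. MYL12B, a paralog near-identical to MYL12A, rose by 1.48. Whether probes for such close copies share signal was not tested.

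The cells carried the markers of the line, as 9 of 9 LNCaP markers were well above background on all 8 arrays, with 3 called lower (KLK2 at -1.84, KLK3 at -1.63 and HOXB13 at -0.40) and KRT8 higher (0.56). Over all genes tested 14.1% were lower and 12.3% higher. Of 5 smooth muscle markers 3 were tested. MYH11, the defining heavy chain, was well above background on 2 siGATA2 arrays and no siControl array, DES, which was well above background on all arrays, had means of 10.77 and 10.68, and SMTN fell by 0.66. Their summed signal was 2463 to 2838 on arrays labelled siGATA2 and 2800 to 3158 on those labelled siControl. Of 9 fibroblast markers 7 were tested, with PDGFRB lower (-2.83), THY1 higher and not above background on any siControl array, and 5 not called. Their summed signal ran from 1287 to 1599 and from 1553 to 1951, and its part in the fall of ACTA2 was not tested.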

How the data were processed

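RNA of 8 LNCaP samples, 4 labelled siGATA2 and 4 labelled siControl, was measured on one-colour Agilent arrays. The authors deposited each spot's intensity as written by Agilent Feature Extraction 11.0.1.1 (per the submitters' processing notes), and a matrix of log2 values whose scale and normalization the file does not state. Its columns correlated best with their own arrays and served as an alternative. The methods name quantile normalization, and the array design in the files differs from the one they name. From the deposited processed signal, unflagged spots were averaged per probe on the log2 scale and quantile-normalized. Of 42405 probes 1914 without annotation and those with a mean under 3 were removed, and the brightest of 35546 probes stood for each of 28876 genes, of which 17874 had a symbol. Names came from a RefSeq table, through which 26364 of 27902 probes with an accession matched. Groups were compared with lmFit and eBayes (limma 3.58.1, R 4.3.3) and Benjamini-Hochberg adjustment, at an adjusted p of 0.05 and a fold of 2, where the methods used a t-test. The fit was also run on simulated data, in which noise was independent between arrays. Such data lack the quality differences and title letter sets of these arrays, so they give no error rate for the calls above. No spot was saturated. Arrays have no read depth, and their number limits the precision.

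The genes and lists were chosen with earlier results of these data known. All 38 genes are accounted for, with each array's value for those at least 2-fold changed, the 4 actins, VCL, SRF, CCN1 and CCN2. Of each other list, at most 2 genes with the largest fall and 2 with the largest rise were named, among those at least 2-fold changed, without overlap and well above background on every array of a group; 1 list and 1 further gene are not reported here. MRTFA, MRTFB, MYOCD, ELK1, ELK4 and markers outside that rule were named after their values were seen. Alternatives covered scaling (75th percentile, E1A spike-in), normexp background with an offset of 50, filters, probe choice, the methods' t-test, an intensity trend, array weights, slide row and replicate number as blocks, and leaving out arrays. Blocks and subsets by title letter, and E1A scaling without siControl array 1, were chosen after seeing the data. Slide as a block could not be run, as there was 1 slide. Promoter windows were searched in Python 3.11.15.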

Additional observations from a re-analysis of the deposited data

Results flagged for a closer look

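In 120 groups of 4 arrays examined, 12 had 1 array whose gap to the nearest of the others was too large a part of the range by Dixon's 95% criterion, where chance gives about 1 in 20, and in all 12 it was siControl array 1. Of the 38 genes, TPM2 at 11.86 (others 9.93 to 10.05) and PDLIM7 at 11.86 (others 11.35 to 11.41) were above the other siControl arrays, and TAGLN2 at 10.98 (others 12.30 to 12.40), TPM1 at 12.03 (others 13.08 to 13.22) and TPM3 at 14.54 (others 15.28 to 15.33) were below them. Of the other named genes, SCAI at 10.77 was above, and TMSB4X at 7.66, CAPG at 6.74, CRK at 10.49, TNS3 at 6.65 and NEDD9 at 3.98 were below. The E1A spike-in was at 11.13 on that array against 13.62 to 13.69 on the other siControl arrays.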

How the results depend on the processing

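Direction was the same under every alternative that gave a value for 28 of the 38 genes. As reported, the 38 genes gave 6 lower and 17 higher, 2 and 9 of them at least 2-fold, with a median of 0.48, among 4060 genes lower and 3558 higher, 2046 and 1303 at least 2-fold. E1A scaling gave 1874 lower and 139 higher, all at least 2-fold, with 2 of the 38 higher, both at least 2-fold, 4 at least 2-fold lower and a median of -0.18. It reversed ACTB (-0.16), PXN (-0.17), CNN2 (-0.41), TPM1 (-0.18), TPM3 (-0.62), TGFB1I1 (-0.52), FHL2 (-0.18), PDLIM5 (-0.23) and LIMA1 (-0.18). Added after seeing the data, E1A scaling without siControl array 1 gave 1818 genes higher and 4354 lower, 1119 and 2700 at least 2-fold. Of the 38 genes it gave 10 lower, 7 higher, 5 at least 2-fold lower, 4 at least 2-fold higher and a median of 0.23, with CNN2 (-0.19), TPM3 (-0.44), TGFB1I1 (-0.088) and FHL2 (-0.059) reversed. Array weights, whose iteration stopped before convergence, gave 5838 genes higher, 2068 at least 2-fold, and 2298 genes at least 2-fold lower. Of the 38 they gave 4 at least 2-fold lower, a median of 0.30, and CNN2 (-0.042), TPM3 (-0.13) and FHL2 (-0.29) reversed. Slide row as a block gave 2178 genes higher, 10 of the 38 higher and TGFB1I1 at -0.0094. With siControl arrays 2 and 4 alone, 11 of the 38 were higher and 4 at least 2-fold lower, among 2700 and 2150 of all genes tested. CNN2 (-0.048), TPM3 (-0.12) and FHL2 (-0.30) were then reversed. Normexp gave 818 genes at least 2-fold higher, and 75th percentile scaling put TPM3 at -0.012. A block for title letter (A or B, or D to G), added later, gave 7172 genes higher and 5715 lower, with 22 of the 38 higher and 7 lower. Arrays D to G alone gave 6822 genes higher and 5564 lower, 2175 of these at least 2-fold lower. Of the 38, 10 were then lower, 5 at least 2-fold lower, and FHL1 was at 0.19. Leaving out each array in turn gave 3204 to 4410 genes lower and 2589 to 3992 higher, 1886 to 2163 and 1116 to 1545 at least 2-fold, and of the 38 genes 4 to 9 lower, 13 to 16 higher, 2 to 4 at least 2-fold lower, 8 to 10 at least 2-fold higher and a median of 0.41 to 0.51. TPM3 then ranged from -0.11 to 0.17 and FHL2 from -0.088 to 0.64, both lowest without siControl array 1. The causes were not tested.

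Same-numbered arrays deviated from their group means with correlations of 0.52, -0.30, 0.16 and 0.18. The labels do not say whether the numbers pair the samples, and these correlations cannot settle it. With the replicate number as a block, 16 of the 38 genes were higher and 6 lower, 8 and 3 of them at least 2-fold, among 3331 genes higher and 3665 lower, 1533 and 2068 at least 2-fold.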
